A study of Mus musculus with 1 sample.

Results

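The genes described here carry names of receptors of the G protein-coupled superfamily that do not serve smell or taste, as measured in 1 culture of mouse lung cancer cells. They were chosen by name alone: a probe set had to name exactly 1 gene, and the symbol had to be Gpr, Adra, Adrb, Chrm, Htr, Drd, Ptger, Lpar, S1pr, P2ry or Adora followed by a digit, Adgr followed by a letter, or F2r, F2rl1, F2rl2, F2rl3, Ednra, Ednrb, Calcr, Vipr1 or Tbxa2r. This gave 136 genes on 219 probe sets, out of 18193 genes on 34945 probe sets that each named 1 gene. The products of at least 10 of these genes are not such receptors, and "receptor genes" below means all 136. No measured value entered the choice. Other symbols that the rule allows were not analysed here.

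The cells are a line that came from a KR tumor, titled KR Primary, of strain B6/J, and the labels give no meaning for KR and do not say whether the line is a clone. They were grown in RPMI1640 with 10% serum to between 80% and 90% confluency, and 150 ng of their total RNA was labelled for 1 Affymetrix array. There is 1 sample and no control, so nothing below is a comparison between conditions, no value has a replicate error, and no p-value can be given. Serum carries lysophospholipids, which are ligands of several of these receptors, and cells without serum were not measured.

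G protein-coupled receptors are serpentine membrane proteins that, on binding a ligand, switch a heterotrimeric G protein in the cell. The alpha subunit decides the route: Gs raises and Gi lowers cyclic AMP, Gq activates phospholipase C, and the G12 and G13 proteins activate the small GTPase RhoA. In lung epithelium such receptors are known for control of surfactant, fluid and mucin secretion, of barrier function, and of the response to proteinases and lipid mediators after injury. Most family members are expressed in few cell types, and the olfactory receptors are the extreme case.

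A probe set is a group of short probes against a transcript, and its signal is in arbitrary units. Signals were judged against 126 probe sets on the same array for olfactory, vomeronasal and bitter taste receptors and keratin-associated hair proteins, whose median was 6.41. The 95th percentile of this set, 16.8, is called the background line, and its highest value, 60.6 for Krtap12-1, the upper limit. A gene passed if its highest probe set did. Probe sets differ in brightness, so a signal far above the limit shows that a transcript was detected but does not order the amounts of different genes. Of 4 epithelial marker genes all 4 passed the upper limit, from 3219 for Epcam to 7600.2 for Krt18. None of the 3 measured leukocyte markers passed the line, and the highest signals among fibroblast, endothelial, neuron and smooth muscle markers were 19.3 (Col1a2), 30.3 (Kdr), 33.7 (Syt1) and 25.1 (Acta2). Of 4 alveolar type 2 markers, Sftpc alone passed the line, at 21.1, and Nkx2-1, the main lung lineage factor, read 7.66. These 4 genes cannot decide whether the label lung cancer cells is right, since they were chosen as markers of 1 lung cell type.

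Most receptor genes were not above background. Of the 136 genes, 47 (34.6%) passed the background line, whereas 63.3% of all measured genes did, and 21 (15.4%) passed the upper limit, whereas 47.5% of all measured genes did. The median of the genes' highest signals was 11.0 for the receptor genes, 48.3 for all measured genes and 6.56 for the smell and taste receptors of the background set. Between the line and the limit lay 26 receptor genes, a range that background probe sets also reached, and 89 were not above the line. In a culture measured in bulk, a transcript present in few cells and a low level in every cell cannot be told apart.

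**Figure D1:**
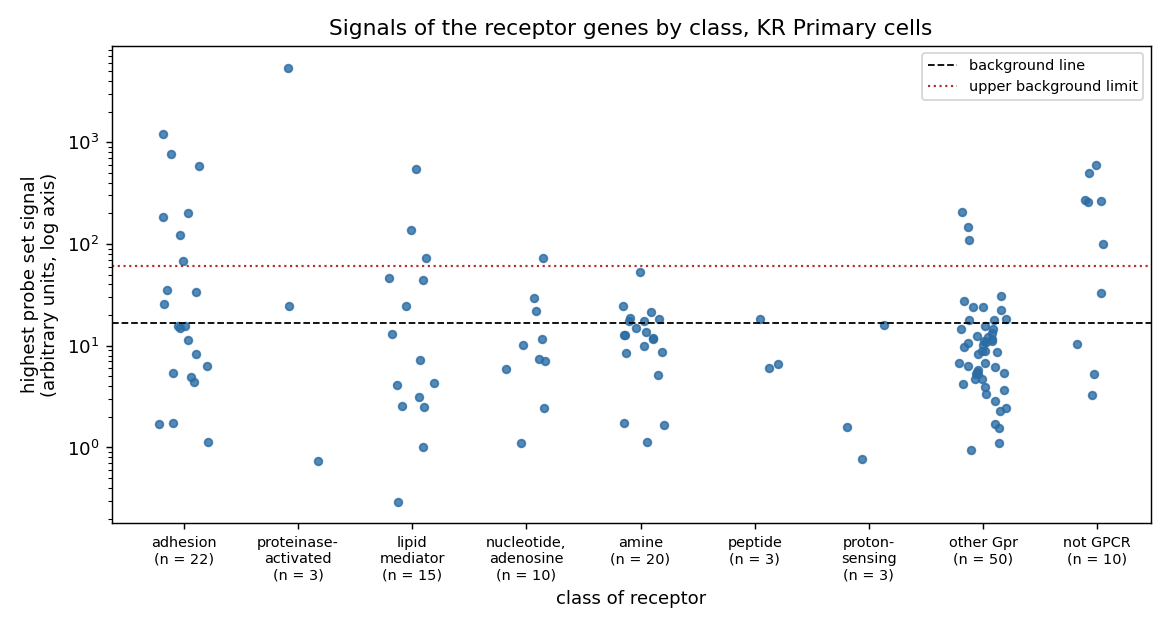
Each point is the highest probe set signal of 1 receptor gene (arbitrary units, log axis), set out by class, with the background line at 16.8 (dashed) and the upper limit at 60.6 (dotted). Adhesion receptors supplied 7 of the genes above the limit, whereas none of the 20 amine receptors reached it.

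The class names in the plot follow the known ligand or structure, except that P2ry10 and P2ry10b were placed with the nucleotide receptors by name alone. By class, the line and the upper limit were passed by 10 and 7 of 22 adhesion receptors, by 6 and 3 of 15 lipid mediator receptors, by 2 and 1 of 3 proteinase-activated receptors and by 3 and 1 of 10 nucleotide and adenosine receptors. Amine receptors passed the line in 7 of 20 genes and the limit in none, peptide receptors in 1 of 3 and none. None of the 3 proton-sensing receptors passed the line. The other Gpr genes, many of them orphans with no agreed ligand, passed in 11 and 3 of 50. The name rule also took in 10 genes whose products are not G protein-coupled receptors, and 7 of them passed the line and 6 the limit. Without these 10 genes, 40 of the other 126 genes (31.7%) passed the line and 15 (11.9%) the limit. The 126 still include Gpr180, whose standing as such a receptor is not established.

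The proteinase-activated receptors are cut by extracellular proteinases, and the new end of the protein then binds the receptor as a tethered ligand. F2r, which encodes the thrombin receptor PAR1, read 5407 and 2675 on its 2 probe sets, so both lay far above every background probe set. It was the brightest of all 136 genes. Both names end in _s_at, an ending for probes that can match more than 1 transcript, although the annotation lists F2r alone for each. F2rl2, encoding the co-receptor PAR3, read 24.5 and 0.889, and F2rl3, encoding PAR4, read 0.736. The pair of them stayed below the upper limit, and F2rl3 was below the background median. Of 12 measured genes listed for proteinases and a cofactor that act on or near such receptors, 6 passed the line. All 6 of these passed the limit. The cofactor gene F3, for the tissue factor that starts clotting on cell surfaces and is not itself a proteinase, read 1429.7. St14, the membrane proteinase matriptase, read 1002, and Tmprss2, another membrane serine proteinase, from 0.932 to 808 on 4 probe sets. The genes of the soluble clotting factors F2 (prothrombin), at 9.69, F7, at 14.4, and F10, at 2.56, were not above the line. Klk5, a kallikrein, read 9.36.

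Adhesion receptors carry long extracellular parts that bind matrix or neighbouring cells. Adgrf5, known as GPR116 and as a brake on surfactant release in alveolar type 2 cells, read 1195 and 27.7, with 1 probe set far above and 1 below the upper limit. Adgrg6, or GPR126, which binds basement membrane proteins and drives Schwann cell myelination, read 764 and 183. Adgre5, the CD97 antigen that binds CD55, read 587 on its only probe set. Adgra2, or GPR124, a WNT7 co-receptor of brain endothelium, read 200.3, and Adgra3, or GPR125, read 185, 9.87 and 2.46. Only the first of the Adgra3 probe sets passed the line. Adgrg1, or GPR56, a receptor for collagen III and transglutaminase, read 121 and 106, and Adgrg3, or GPR97, known from leukocytes, read 67.5.

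The Adgrg subfamily passed the line in all 4 measured genes, the fourth being Adgrg2 of the male reproductive ducts at 33.7 and 5.82. Of the latrophilins, Adgrl1 read 35.3 and 29.1 and Adgrl2 at most 25.9, while Adgrl3 at 14.8 and the endothelial Adgrl4 at 4.37 did not pass. None of the 3 Adgrb genes, which are brain receptors, passed the line, at 1.73 to 8.21. Adgre1, encoding the macrophage antigen F4/80, read 15.6, and Adgre4 5.44. Adgrf4 at 6.38 and Adgrf1 at 1.13, which belong to the same subfamily as Adgrf5, were not above background.

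**Figure D2:**
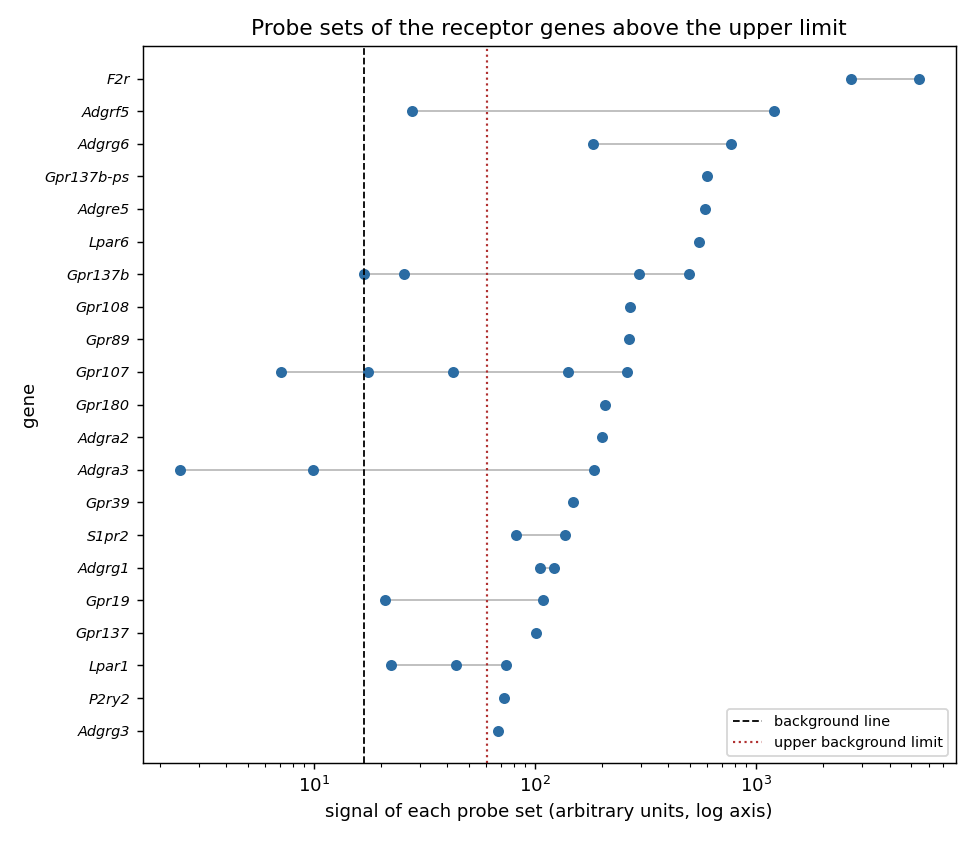
Each point is 1 probe set (arbitrary units, log axis) of the 21 genes above the upper limit, with points of a gene joined. The 2 probe sets of F2r lie at 5407 and 2675, while Adgra3 and Gpr107 each have probe sets on both sides of the background line at 16.8.

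Lipid mediator receptors respond to lysophosphatidic acid (LPA), sphingosine-1-phosphate and prostanoids. Lpar6, an LPA receptor that couples to G12 and G13, read 547 on its only probe set. Lpar1, the most widely expressed LPA receptor, read 73.3, 43.9 and 22.3, all above the line and 1 above the limit. Lpar2 read 46.3 and 17.2, and Lpar4, at most 4.14, and Lpar3, at 0.294 the lowest of all 136 genes, were not above background. S1pr2, the sphingosine-1-phosphate receptor with the strongest known link to G12 and G13, read 136.5 and 81.5, both above the upper limit. S1pr4, a lymphocyte receptor, read 24.8, and S1pr1, the main endothelial and lymphocyte receptor, 12.9. The remaining S1pr3 and S1pr5 read at most 2.57 and 1.02.

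None of the 5 prostanoid receptor genes passed the upper limit. Ptger4, the EP4 receptor that couples prostaglandin E2 to Gs, read 44.4 and 5.05, between the line and the limit on its brighter probe set. Ptger1, Ptger2, Ptger3 and the thromboxane receptor gene Tbxa2r were not above the line, at 2.49, 3.16, 7.17 and 4.26. The enzymes that make the ligand gave signal: Ptgs2, the inducible cyclooxygenase, read 2208 and 623, and Ptges, the inducible prostaglandin E synthase, passed the limit on all 3 probe sets with a highest value of 1529.9. Abcc4, an exporter of prostaglandins, read 1808. Hpgd, which inactivates prostaglandin E2, read 5.03, and Ptgis, the prostacyclin synthase, 10.1. In this list 9 of 11 genes (81.8%) passed the line and 6 (54.5%) the limit, beside 63.3% and 47.5% of all measured genes.

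For the lysophospholipids, 11 of 13 genes of synthesis, export and breakdown passed the line and 5 the limit. These shares were 84.6% and 38.5%, beside 63.3% and 47.5% of all measured genes. Plpp2, a lipid phosphate phosphatase, read 1922 and 2.71, so its probe sets did not give the same answer. Spns2, the exporter of sphingosine-1-phosphate, read 1005 on its only probe set, and Sgpl1, which degrades it, read 206 and 65.4. The kinases that make it, Sphk2 and Sphk1, read at most 53.6 and 35.1, between the line and the limit. Mfsd2b, an exporter in red cells, at 9.55, and Sgpp2, at 15.8, were the lowest.

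Nucleotide receptors were represented by 1 gene above the limit, P2ry2 at 72.1. Its product responds to ATP and UTP and drives chloride and mucin secretion in airway epithelium. P2ry12, the platelet and microglial ADP receptor, read 29.6 and P2ry4, another UTP receptor, 22.2. The other 6 P2ry genes and Adora3, the only adenosine receptor analysed here, were not above the line, with P2ry1 lowest at 1.11. Enzymes and channels of extracellular nucleotides passed the line in 8 of 12 genes and the limit in 7. These shares were 66.7% and 58.3%, beside 63.3% and 47.5% of all measured genes. Nt5e, the CD73 enzyme that makes adenosine, read 734 on the highest of 3 probe sets, Entpd3, which breaks down ATP, 351, and Slc29a1, an adenosine transporter, 273. Entpd8 at 6.12 and the channel gene Panx2 at 5.52 were lowest.

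Amine receptors, the targets of adrenaline, acetylcholine, dopamine and serotonin, stayed below the upper limit. The highest was the serotonin receptor Htr1b, at 52.9 and 6.02, followed by Htr1a at 24.8 and 8.90. The muscarinic receptor Chrm1 read 21.3 and 1.24, and the dopamine receptor Drd3 read 17.7. Chrm3, the muscarinic receptor of glands and airway smooth muscle, read 1.68. The measured adrenergic genes, Adra1b at 15.0 and Adra2c at 11.9, did not pass the line. Of the 7 amine receptor genes above the line, 6 had at least 1 other probe set, and in none of them was a second one above it.

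Among peptide receptors, Ednrb, the endothelin B receptor, read 18.4, 15.1 and 13.4, Vipr1 6.55 and 0.720, and Calcr 6.09. Edn1, encoding endothelin 1, read 66.2, and Ece1, the enzyme that matures it, 305 at most, with its relative Ece2 at 238 and 8.51. The peptide genes Vip and Adcyap1 read 4.52 and at most 4.73. Of the 3 receptor activity modifying proteins, which partner Calcr and its relatives, Ramp1 alone passed the line. It did so on 1 of its 3 probe sets, at 71.4, and its lowest read 4.65. Ramp3 and Ramp2 read 11.3 and 7.65. The proton-sensing receptors Gpr132, Gpr4 and Gpr65 read at most 16.0, 1.60 and 0.776.

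Of the remaining Gpr genes, 3 passed the upper limit. Gpr180, whose standing as such a receptor is not established, read 206 on its only probe set. Gpr39, a zinc-sensing receptor of gut and other epithelia, read 147, also on 1 probe set. Gpr19, an orphan, read 108.5 and 20.9. Gpr162 at 31.1 and Gpr160 at 27.4 were between the thresholds, as were Gpr18 at 24.0, Gpr135 at 24.1 and Gpr146 at 22.2. The leukocyte receptors Gpr183 (18.4 and 1.27), Gpr84 (1.68) and Gpr171 (5.76) were at or near background, and Gpr149 was the lowest of these 50 genes at 0.944.

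Genes set apart here as carrying a Gpr or Htr name without being such receptors made up 6 of the 21 above the limit. Gpr137b and Gpr137 encode lysosomal membrane proteins, Gpr107 and Gpr108 membrane proteins of the Golgi, and Gpr89 a regulator of Golgi pH. Gpr107 read 260.0, 140.0, 42.2, 17.5 and 7.05 on 5 probe sets, Gpr108 268, Gpr89 266 and Gpr137 100.3. Gpr137b read 497, 293, 25.5 and 16.8, and Gpr137b-ps, annotated as its transcribed pseudogene, 595 on a probe set ending in _x_at. Signals of this near-identical pair cannot be assigned to either gene. Htr3a, a serotonin-gated ion channel subunit, read 33.2. Gpr155, a lysosomal cholesterol sensor, read 5.33, the channel subunit Htr3b 10.4, and Gpr137c 3.31.

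The values next to the thresholds were close together. Just above the line lay Htr7 at 17.4 and Drd3 at 17.7, and just below it Gpr132 at 16.0 and Gpr37l1 at 15.8. Just above the upper limit lay Adgrg3 at 67.5 and P2ry2 at 72.1, and just below it Htr1b at 52.9 and Lpar2 at 46.3. Of 58 receptor genes with 2 or more probe sets, 10 had all above the line, 32 had none and 16 (27.6%) were split, beside 32.9% split among all such genes. The median SD between probe sets of 1 gene was 1.37 on the log2 scale for the receptor genes and 1.45 for all genes. Among the 21 genes above the upper limit, each differed from its neighbour in the order of signals by less than that spread, except F2r from Adgrf5.

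Genes with more probe sets had more chances to pass, so the receptor genes were also set beside genes with as many. With 1 probe set, 26.9% of 78 receptor genes and 48.3% of all 9183 such genes passed the line. With 2, the shares were 40.5% of 42 and 72.4% of 4695, and with 3 or more, 56.2% of 16 and 85.3% of 4315. The lower share among receptor genes therefore held in each of the 3 layers. Counted one by one, 29.7% of the 219 probe sets of receptor genes and 60.9% of all probe sets exceeded the line, and 12.3% and 41.1% the upper limit.

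**Figure D3:**
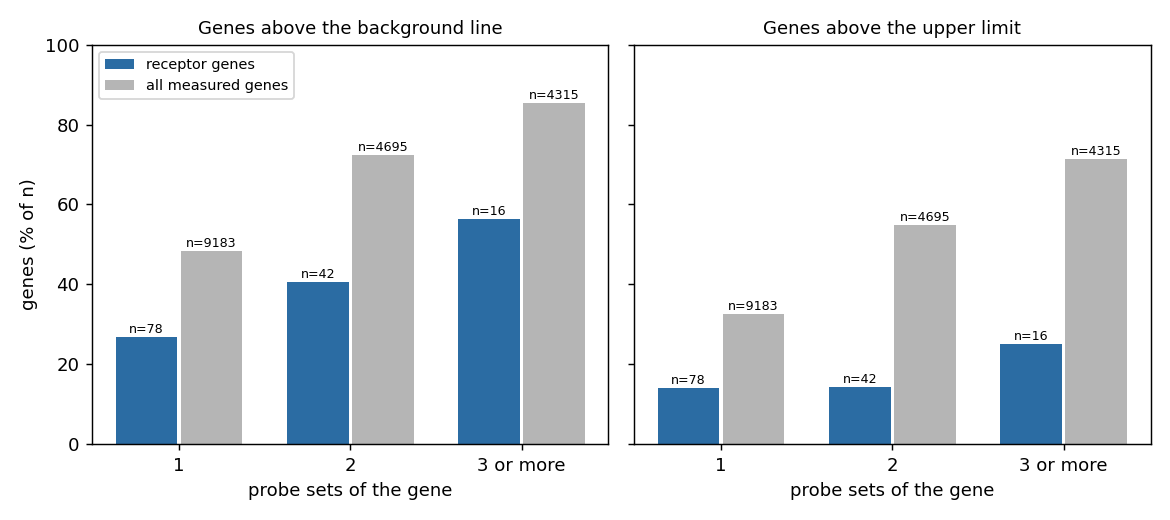
Bars give the share of genes (%) above the background line (left) and the upper limit (right), by the number of probe sets of the gene, with receptor genes left of all measured genes and n printed on each bar. In each layer the receptor genes have the lower share, such as 26.9% beside 48.3% for the line with 1 probe set.

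The genes were also grouped by the textbook main coupling, which was assigned to 52 of them. Genes assigned to several G protein families passed the line in 8 of 13 (61.5%) and the limit in 4 (30.8%). Of all measured genes, 63.3% passed the line and 47.5% the limit, so neither share was above the general one. The 4 above the limit were F2r, Lpar6, S1pr2 and Lpar1. The 8 above the line include F2rl2, whose product PAR3 is described above as a co-receptor. Genes assigned mainly to Gs passed in 3 of 12 and none, to Gi in 5 of 17 and none, and to Gq in 2 of 10 and 1, the last being P2ry2. Genes without an assigned coupling, among them Gpr39 at 147 and P2ry4 at 22.2, are not in these counts. The counts therefore do not cover every receptor known for each route. The 3 genes assigned to Gs and above the line were Ptger4 at 44.4, Htr4 at 18.5 and Htr7 at 17.4.

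Counted by their highest probe set, genes of the signalling and ligand supply lists passed the line at about the rate of all genes. Over the lists of G proteins, effectors, regulators and ligand supply, 100 of 161 measured genes (62.1%) passed the line and 65 (40.4%) the limit, with a median of 35.1. Of all measured genes, 63.3% and 47.5% did, so the counts are no result about the lists as a whole. Counted one by one, the 373 probe sets of the lists passed less often than all probe sets. Of them, 50.1% exceeded the line and 30.8% the limit, whereas 60.9% and 41.1% of all probe sets did. Of 15 G alpha genes, 10 passed the line and 8 the limit. Gnas, encoding Gs alpha, read 2967 on the highest of 5 probe sets, but only 2 of the 5 passed the line. Gnai2 and Gnai3 read at most 1537 and 1720.5, Gna11 and Gnaq of the Gq family 871 and 557, and Gna13 and Gna12 647 and 109. All 7 Gna13 probe sets passed the limit. The retinal Gnat1, at 6.84, and the mainly neural Gnaz, at 7.19, were lowest.

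Gnb1, Gnb2 and Gng10 led the beta and gamma subunits at 2086, 1988 and 1062, and 7 of 16 passed the line. The lowest were the retinal Gngt1 at 6.20 and Gng2 at 6.90. Adenylyl cyclases passed the line in 6 of 9 genes, but Adcy6 alone passed the limit, at 424, followed by Adcy1 at 48.0 and Adcy3 at 36.1, with Adcy8 at 6.87 and Adcy7 at 6.70 lowest. Plcb3 was the only 1 of 4 phospholipase C beta genes above the limit, at 363, while Plcb1 read at most 26.3, Plcb4 8.49 and Plcb2, of blood cells, 5.73. All 11 protein kinase A and CREB genes passed the line on their highest probe set, and 26 of their 37 probe sets did. Prkar1a at 1521, Prkaca at 671 and Creb1 at 337 were highest. The coactivator gene Crtc2 at 29.0 and Prkar1b at 25.6 were lowest. All 4 RhoGEF genes that G12 and G13 act on passed the limit on their highest probe set. Akap13 at 292 and Arhgef12 at 291 were at the top, Arhgef1 at 170.0 next and Arhgef11 at 91.6 at the bottom. Of the 15 RhoGEF probe sets, 9 passed the line and 6 the limit. Akap13 passed the limit on 1 of 7 and Arhgef11 on 1 of 2.

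Of the genes that end signalling, Grk6, a receptor kinase, passed the limit on all 3 probe sets and reached 379. Both beta-arrestin genes lay between line and limit, Arrb2 at 58.3 and 55.3 and Arrb1 at 46.2. The photoreceptor genes Grk1 at 1.34 and Arr3 at 10.7 and the receptor kinase gene Grk4 at 8.05 were not above background, while Sag, the rod arrestin, read 69.9. RGS genes, whose products speed up the shut-off of G alpha, passed the line in 11 of 19 and the limit in 6, led by Rgs12 at 376, Rgs19 at 318 and Rgs3 at 213. Rgs6 at 1.02 and the leukocyte gene Rgs13 at 0.214 were lowest. Of the cyclic AMP phosphodiesterases, 5 of 15 passed the line. Pde2a read 884 at most and Pde7a 159, and each passed the limit on all its probe sets, and Pde4d read 119 and 4.61. Pde8b at 5.34 and Pde11a at 2.89 were lowest.

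**Figure D4:**
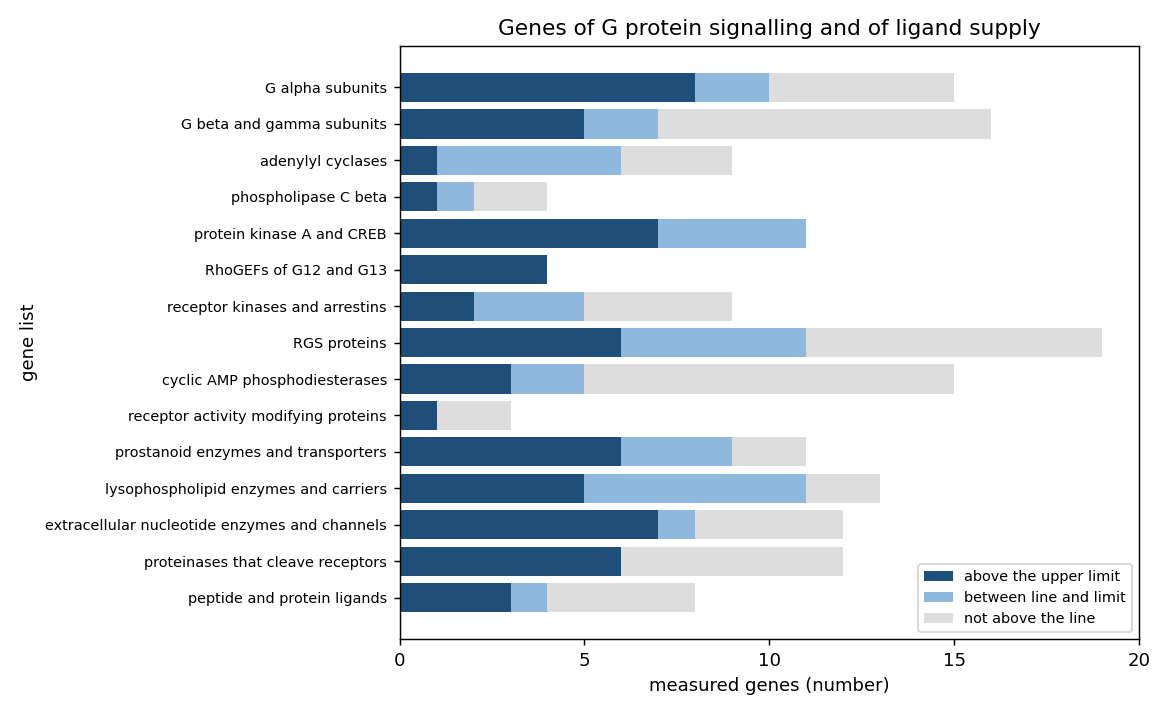
Bars give the number of measured genes in each list of G protein signalling or ligand supply, split into those above the upper limit of 60.6, between it and the background line of 16.8, and not above the line. By their highest probe set, all 4 RhoGEF genes lie above the limit, whereas 1 of 9 adenylyl cyclases does.

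Sequence around the transcription start was compared as a property that the choice of genes did not use. RefSeq windows of assembly GRCm38.p6, from 250 bases before to 50 after a start, were found for 109 of the 136 genes, and a gene was called CpG-rich if a window had at least 50% G and C and an observed over expected CG ratio of at least 0.6. The motif is CG, which reads the same on both strands, and 96.9% of windows of measured genes held at least 1 in the 250 bases before the start. The following 4 windows are shown because they span the range: F2r and Adgrg6 are bright and CG-dense, Lpar6 is bright and CG-poor, and F2rl3, not above background, has no CG at all. Capitals mark CG, and each runs 5′ to 3′ along the gene.
F2r: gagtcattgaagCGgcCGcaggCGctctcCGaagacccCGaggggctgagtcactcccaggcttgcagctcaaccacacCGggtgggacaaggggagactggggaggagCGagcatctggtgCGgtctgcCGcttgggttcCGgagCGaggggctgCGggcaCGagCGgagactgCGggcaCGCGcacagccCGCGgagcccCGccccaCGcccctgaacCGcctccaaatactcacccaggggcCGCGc
Adgrg6: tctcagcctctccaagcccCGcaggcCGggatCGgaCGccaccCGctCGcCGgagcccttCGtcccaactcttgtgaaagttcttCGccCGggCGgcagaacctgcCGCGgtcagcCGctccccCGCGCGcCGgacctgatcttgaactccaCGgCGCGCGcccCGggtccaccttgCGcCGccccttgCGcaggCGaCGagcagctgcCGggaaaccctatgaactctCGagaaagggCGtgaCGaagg
Lpar6: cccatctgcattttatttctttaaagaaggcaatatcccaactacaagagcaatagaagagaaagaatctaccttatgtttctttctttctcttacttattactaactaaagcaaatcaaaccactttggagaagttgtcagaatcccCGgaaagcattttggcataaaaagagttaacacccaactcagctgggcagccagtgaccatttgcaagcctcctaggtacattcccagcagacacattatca
F2rl3: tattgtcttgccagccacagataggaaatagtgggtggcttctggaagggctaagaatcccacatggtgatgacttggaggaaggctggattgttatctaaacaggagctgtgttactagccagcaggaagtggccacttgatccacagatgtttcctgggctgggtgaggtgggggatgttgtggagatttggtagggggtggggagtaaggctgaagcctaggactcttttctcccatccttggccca

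The F2r window lies at chr13:95618467-95618716 on the minus strand and holds 24 CG. The Adgrg6 window, at chr10:14545037-14545286 on the minus strand, holds 32. The Lpar6 window, at chr14:73237641-73237890 on the plus strand, holds 1, and the F2rl3 window, at chr8:72761409-72761658 on the plus strand, 0. A window of a measured gene held a median of 12.

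Receptor genes were CpG-rich in 40.4% of the 109, whereas 57.2% of all 14452 measured genes with a window were, and 1 of 61 smell and taste receptors was. Of the 17 receptor genes above the upper limit with a window, 11 (64.7%) were CpG-rich, and of the 92 not above it, 33 (35.9%) were. The 17 include Gpr107, Gpr108, Gpr89 and Gpr137, whose products are not such receptors, and of these all but Gpr89 were CpG-rich. Over all measured genes with a window the same split was 79.7% of 7128 above the limit and 35.2% of 7324 not above it, so a higher CpG-rich share above the limit is not particular to the receptor genes. Among CpG-rich genes, 43.2% of the receptor genes and 83.3% of all measured genes passed the line. Among the others, the shares were 29.2% and 40.6%. The share of receptor genes was the lower one in both promoter classes, as a description of this array without a test. Lpar6, Adgrf5, Gpr89, Gpr39, Adgrg1 and Adgrg3 passed the limit without a CpG-rich window, and Lpar3, at 0.294, had one.

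**Figure D5:**
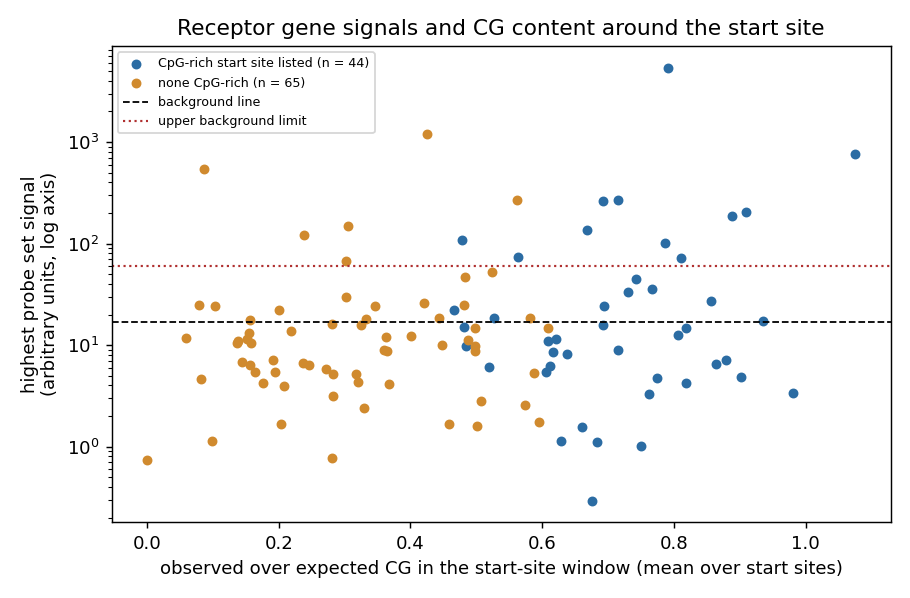
Each point is 1 of the 109 receptor genes with a start-site window, plotted by the observed over expected CG ratio (mean over its start sites) and its highest signal (arbitrary units, log axis), coloured by whether any window is CpG-rich. Of the 17 points above the upper limit of 60.6, 11 are CpG-rich.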

How the data were processed

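Total RNA of 1 cultured sample was hybridized to 1 Affymetrix array. The authors deposited 1 linear signal intensity for each of 45101 probe sets. The submitters' processing notes name Affymetrix Expression Console, and how it summarised probes and corrected background is not given in the sources used. The authors' detection calls were not used here, and the number of arrays limits the precision. Genes were named from the platform annotation, where 34945 probe sets name 1 gene, 932 several and 9160 none here, and symbols were updated by gene ID with RefSeq GRCm38.p6 (34741 probe sets, all of the receptor genes' among them). Here signals were taken to log2, a line was set at the 95th percentile of 126 background probe sets and an upper limit at their maximum, and genes were counted by their highest probe set. Alternatives changed the percentile (90 or 99), the set behind the line or its formula, the admitted probe sets, the combining rule, the symbols and the members. The gene lists and rules were chosen with earlier results of these data known. Genes named in the text are those above the upper limit, those next to a threshold, the highest of each class, the lowest, and the highest and lowest of each list; others were named after their values were seen. The code for the calls was run on simulated data. Unexpressed signals there had the mean and spread of the background set, so the run could not check the line itself. Python 3.11.15, numpy 2.4.6, pandas 2.3.3, scipy 1.17.1 and matplotlib 3.10.9 were used.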

Additional observations from a re-analysis of the deposited data

Results flagged for a closer look

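Probe sets that name several genes were left out of the counts, and 4 of the 5 that name a receptor gene by the rule carried signal above the background line. All 4 name Gpr137b together with Gpr137b-ps, and they read 996.6, 712, 532.6 and 111.5, each above the upper limit.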

How the results depend on the processing

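The count of receptor genes above the line was 47 of 136 and ranged from 18 to 55 over the alternatives. It was 24 with the line at the 99th percentile and 18 with the line at the median plus 3 scaled median absolute deviations, which lies at 94.6, above the upper limit. In those settings 17.6% and 13.2% of receptor genes passed, whereas 52.8% and 42.4% of all measured genes did. The share of receptor genes was below that of all measured genes in each of the 7 alternatives where both were computed. The count above the upper limit was 21, and 39 with smell and taste receptors alone as background, where the limit was 19.2. Without probe sets ending in _s_at or _x_at it was 17 of 133 genes. F2r, Adgra2 and Gpr137b-ps had no probe set left there, so they were not measured. Gpr137b was no longer above the limit, at 25.5 on its remaining probe set. With the median over a gene's probe sets the count above the limit was also 17, without Adgra3, Gpr107, Gpr19 and Lpar1. The signalling lists passed the line in 100 of 161 genes, and in 55 under the median-based line. The median signal of the receptor genes was 11.0, and 6.98 with the median over probe sets. The other alternatives stayed within 1.5 times of the values given. With 1 sample, no replicate could be left out and no paired analysis was possible because there was no second group.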
